A study of Mus musculus with 18 samples.

Results

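The transcripts described here are those of 32 genes that the tumour suppressor p53 is known to activate in mouse or human cells. The members were given as a list of gene symbols, and all 32 were found among the 56748 genes of the deposited count table. Their messages were measured in RN2, a leukemia cell line of the myeloid lineage from the mouse that carries the oncogenes MLL-AF9 and NrasG12D and whose genotype is labelled WT. The 18 polyA-selected, directional libraries form 6 groups of 3: seBE with rapamycin, seBE with vehicle, intact BE with rapamycin, intact BE with vehicle, the catalytic mutant, and nCas9.

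All 6 groups were transduced with a lentiviral construct and sorted on day 5 after transduction. A base editor (BE) joins a Cas9 nickase to a deaminase that changes bases in DNA. The intact BE carries the deaminase called evoA1, the catalytic mutant is the intact BE with the active site of that deaminase disabled, and nCas9 is the nickase with no deaminase. The labels name seBE only by that abbreviation. Rapamycin, which inhibits the growth kinase mTOR, was given at 1 nM for 24 h before sorting to intact BE and seBE cells, and vehicle was given to matching cells. The sample labels call nCas9 and catalytic mutant cells vehicle-treated too, while the treatment protocol names only intact BE and seBE cells as treated. Guide RNAs and the promoters of the constructs are not given by the labels. Each sample title carries the tag "biol rep", so the submitters count the repeats as biological. Whether they came from separate transductions is not stated. The p-values therefore measure only the spread between these libraries, and how much of that spread is technical is not known.

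p53 is a transcription factor that is held low by the ubiquitin ligase Mdm2 and is stabilised when DNA is damaged or ribosome assembly is disturbed. It then binds sites near its target genes, whose products arrest the cell cycle, repair DNA, trigger death of the cell through mitochondria or death receptors, and feed back on p53 itself. In acute myeloid leukemia, loss of p53 function is known for resistance to chemotherapy, and Cdkn1a and Mdm2 are the messages most often read as a sign that p53 is active.

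A p53 site is a pair of half-sites of 10 bases each. RefSeq promoter windows on GRCm38.p6, running from 250 bases before to 50 bases after the transcription start, were found for 23 of the 32 members. An exact p53 half-site lay in the window of 10 of these 23 genes, against 9.554% of the 27025 genes with a window. A pair of half-sites with at most 1 mismatch in all and at most 13 bases between them lay in 6 of the 23, namely Bax, Ccng1, Cdkn1a, Gtse1, Polk and Rps27l, against 1.24% of all genes. The stretches of 5 of these genes are shown because they are what the members were chosen for, targets of 1 factor, written out as DNA; capitals mark the half-sites, and each stretch is given 5′ to 3′ on the strand of its gene. That of Cdkn1a is chr17:29090881-29090962 on the plus strand with no mismatch, that of Bax is chr7:45467065-45467135 on the minus strand, and that of Rps27l is chr9:66946271-66946340 on the plus strand. That of Ccng1 is chr11:40755437-40755506 and that of Polk is chr13:96519373-96519437, both on the minus strand, and these last 4 genes have 1 mismatch each. That of Gtse1 reaches past the transcription start and is not shown. Only the pair with the fewest mismatches is marked in each stretch. In Cdkn1a, the 10 bases straight after the second marked half-site also match a half-site, with 1 mismatch. They form another pair with it, with no bases between, which is left in lower case. Which pair p53 binds was not tested.
Cdkn1a: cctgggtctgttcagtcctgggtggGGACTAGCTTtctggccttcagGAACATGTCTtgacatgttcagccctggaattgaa
Bax: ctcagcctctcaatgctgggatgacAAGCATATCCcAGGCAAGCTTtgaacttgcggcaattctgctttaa
Rps27l: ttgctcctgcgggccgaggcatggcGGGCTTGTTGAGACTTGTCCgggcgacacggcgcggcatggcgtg
Ccng1: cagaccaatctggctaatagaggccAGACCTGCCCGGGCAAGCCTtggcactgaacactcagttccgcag
Polk: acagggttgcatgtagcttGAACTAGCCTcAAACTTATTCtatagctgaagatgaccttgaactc

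Psrc1, the member called most often below, had no such pair in its window, which says only that these letters are not there. It held a CHR element (TTTGAA or TTCGAA on either strand), a short motif of promoters that are active when cells divide, as did 5 of the 23 members and 21.661% of all genes with a window. The Psrc1 element, in capitals, lies in chr3:108383798-108383823 on the plus strand of GRCm38.p6. A match is a run of letters and not a measured site.
Psrc1: gcctaagaaaTTCGAAcgaagctccg

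Most of the members were expressed. The filter on low counts passed 30 of the 32, and 23 averaged at least 10 CPM (read counts per 1000000 counts of a library whose size was scaled with TMM) over the 18 libraries, 6 of them at least 100 CPM. Per kilobase of exon, the highest mean level was that of Rps27l, a ribosomal protein paralog, at 290.8 CPM per kb, followed by cyclin G1 (Ccng1) at 69.5, the mitochondrial pore former Bax at 53.4, the cyclin-dependent kinase inhibitor Cdkn1a at 44.1 and the death trigger Pmaip1 (Noxa) at 31.8 CPM per kb. The death receptors Fas and Tnfrsf10b stood at 0.789 and 0.273 CPM per kb, and Perp, a membrane protein of cell junctions, at 0.162 CPM per kb. Those failing the filter were the receptor Eda2r, with 0 to 16 counts a library, and the secreted stress factor Gdf15, with 0 to 2 counts; a library with 0 counts allows a level of up to 3 counts, or 0.139 to 0.192 CPM by group, which covers counting error only. The members together took 0.175% to 0.2% of the counts of a library.

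Library totals ran from 13835979 to 23284932 counts, and 14985 genes were tested. The 9 myeloid leukemia markers were all detected, with Ly6c2 at 1150 CPM, Ptprc at 386 CPM, Hoxa9 at 295 CPM and Mpo at 260 CPM on average, and their sum lay between 2250 and 2670 CPM in every library. The markers of T, B, erythroid, fibroblast and epithelial cells summed to at most 1.2 CPM per list in any library. The share of counts from mitochondrial genes moved with the groups: it was 2.99% to 4.61% in seBE with rapamycin, 2.66% to 4.1% in seBE with vehicle, 1.99% to 2.25% in intact BE with rapamycin, 1.78% to 2.02% in intact BE with vehicle, 3.73% to 5.47% in the catalytic mutant and 4.43% to 5.54% in nCas9. Its part in the results below was not tested. As in any bulk sample, fewer cells of a kind and less RNA per cell cannot be told apart.

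Over the 9 comparisons, 13 of the 30 tested members passed an adjusted p of 0.05 at least once and 17 never did. Equality of all 6 group means was rejected for 11 of the 30 (36.7%), against 31.4% of all genes tested. The tests are edgeR quasi-likelihood F tests with Benjamini-Hochberg adjustment over all 14985 genes. The changes were small: of the 25 calls of a member in a comparison, 1 exceeded 2-fold, and the smallest was 0.23 on the log2 scale. The libraries of both groups did not overlap in 24 of the 25 calls. This adds little to the calls, since a gene called in groups of 3 libraries tends to have groups that stand apart. The share over all called genes is not given here.

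Counted with no test, the members whose libraries did not overlap between the groups were 7 of 30 in intact BE against nCas9 (38% of all genes), 7 in the catalytic mutant against nCas9 (21.3%), 6 in seBE against nCas9 (22.5%) and 11 in intact BE against the catalytic mutant (37.8%). They were 12 in seBE against intact BE under vehicle (29.4% of all genes) and 8 under rapamycin (19.6%), and the drug left 7 members apart in intact BE (22.3%) and 2 in seBE (8.06%).

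**Figure D1:**
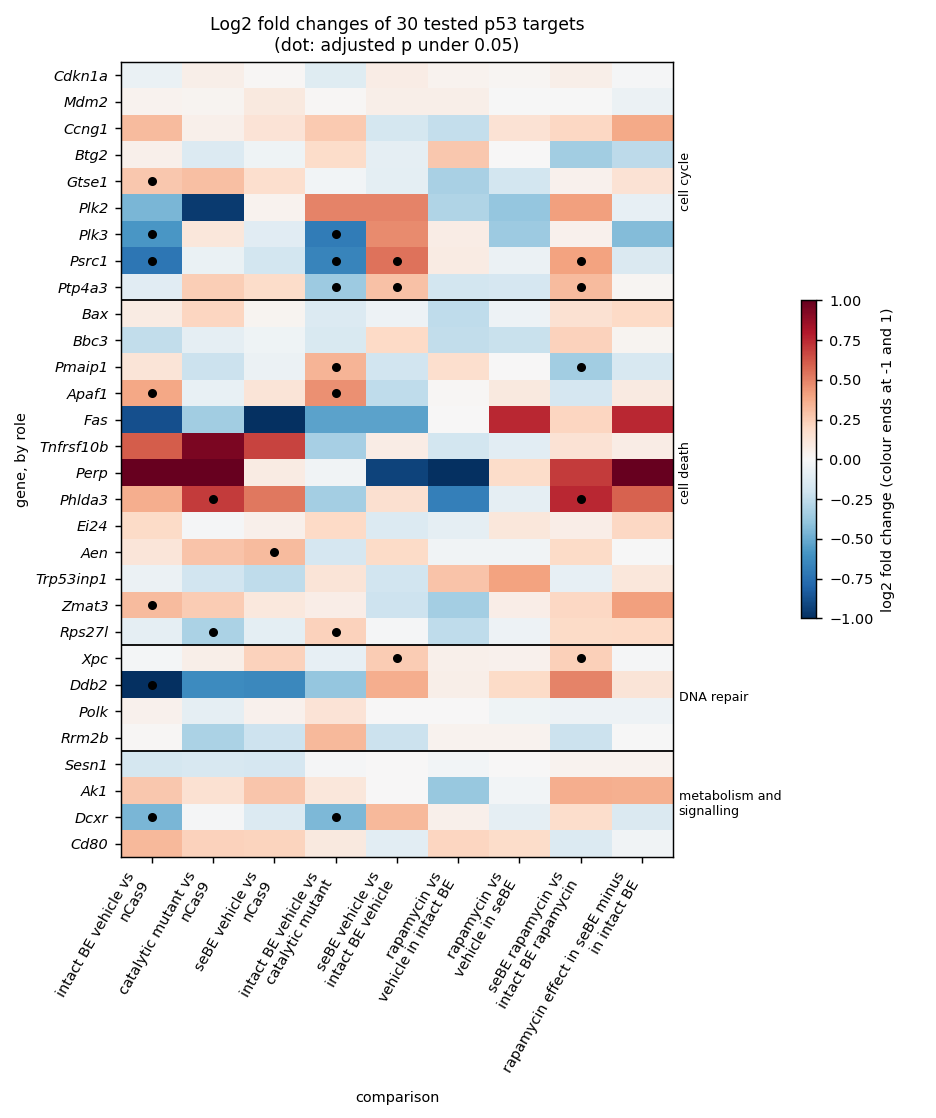
Log2 fold changes of the 30 tested p53 targets (rows, grouped by role) in 9 comparisons (columns, the first group named over the second); colour ends at -1 and 1, and a dot marks an adjusted p under 0.05. The dots are spread over all 4 roles, Psrc1 has the most with 4, and Cdkn1a and Mdm2 have none.

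Cdkn1a, whose product stops the cell cycle, passed the test in no comparison. It stood at 174, 153 and 152 CPM in seBE cells with rapamycin, 157, 162 and 154 CPM in seBE cells with vehicle, 151, 163 and 147 CPM in intact BE cells with rapamycin, 148, 149 and 152 CPM in intact BE cells with vehicle, 146, 168 and 174 CPM in catalytic mutant cells, and 145, 151 and 174 CPM in nCas9 cells. Among the 8 pairs of groups compared, the libraries overlap in all but seBE against intact BE under vehicle, where every seBE library lies above every intact BE library. The highest libraries are in 3 different groups. Over 8 pairs of groups its log2 fold change ran from -0.12 to 0.07, its 95% intervals reached from 0.822-fold to 1.18-fold, and its smallest adjusted p was 0.331. The intervals give the changes that these libraries leave possible, each for its own pair of groups, and are not a limit of detection.

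Mdm2, the ligase that marks p53 for degradation and is itself a p53 target, also passed in no comparison. It stood at 138, 145 and 143 CPM in seBE cells with rapamycin, 140, 142 and 145 CPM in seBE cells with vehicle, 138, 147 and 144 CPM in intact BE cells with rapamycin, 136, 138 and 136 CPM in intact BE cells with vehicle, 132, 138 and 136 CPM in catalytic mutant cells, and 131, 146 and 123 CPM in nCas9 cells. Again the libraries overlap in every compared pair but seBE against intact BE under vehicle, where the seBE libraries are the higher, and the widest spread is among the nCas9 libraries, which hold the lowest value of all. The log2 fold changes ran from -0.01 to 0.10, the 95% intervals reached from 0.902-fold to 1.18-fold, and the smallest adjusted p was 0.53.

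Other members often read with them had no call in the fit of all 18 libraries. Cyclin G1 (Ccng1) averaged 268 CPM in seBE cells with rapamycin, 243 in seBE cells with vehicle, 232 in intact BE cells with rapamycin, 274 in intact BE cells with vehicle, 228 in catalytic mutant cells and 220 in nCas9 cells, with a pooled SD of 37.6 CPM and a smallest adjusted p of 0.199. From the compared libraries alone Ccng1 was called in intact BE against nCas9 cells, at 0.30 on the log2 scale with adjusted p = 0.0199, although the libraries of these groups overlap. Bax lay between group means of 73.3 and 96.4 CPM and Bbc3 (Puma), another trigger of mitochondrial death, between 8.38 and 11.8 CPM, with smallest adjusted p of 0.237 and 0.454. Sesn1, a sestrin that restrains mTOR signalling, ranged from 65.4 to 75 CPM over the group means, with a smallest adjusted p of 0.156. The intervals of weakly expressed genes were wide: those of Fas reached from 0.172-fold to 3.67-fold over the 8 pairs. Large changes of Fas in either direction were therefore not excluded at this depth. Its largest log2 fold change was -1.42, in seBE cells with vehicle against nCas9 cells (adjusted p = 0.14), where the libraries do not overlap.

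**Figure D2:**
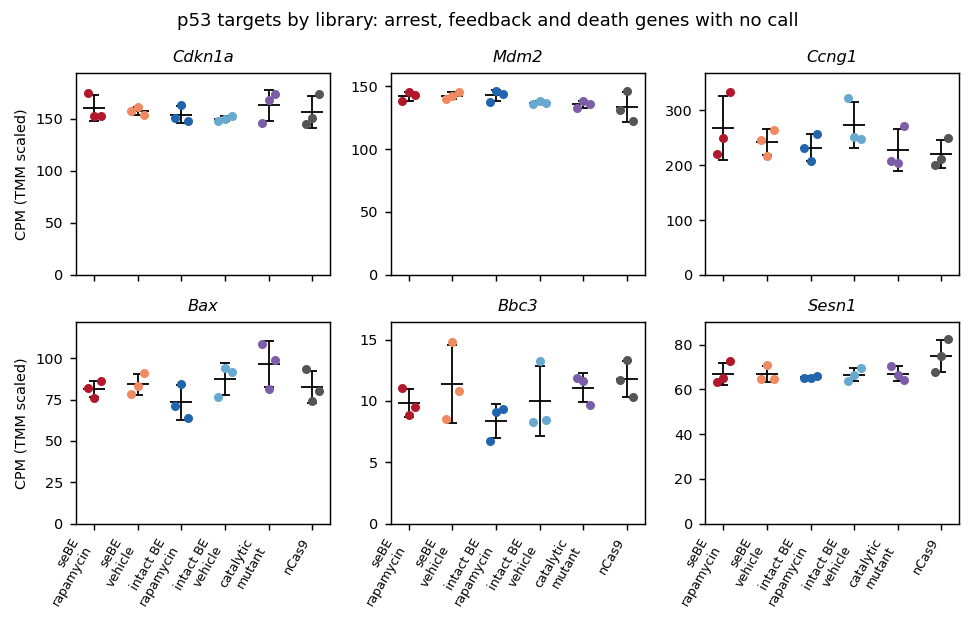
CPM (TMM scaled) of Cdkn1a, Mdm2, Ccng1, Bax, Bbc3 and Sesn1 in each of the 18 libraries, by group; points are libraries, lines the mean and bars the SD of 3. Cdkn1a lies between 145 and 174 CPM, and among the 8 pairs of groups compared the libraries stand apart only in seBE against intact BE under vehicle, for Cdkn1a and Mdm2.

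Intact BE cells differed from nCas9 cells in 7 of the 30 tested members, 3 higher and 4 lower. The falls were in Psrc1, a microtubule-binding protein of the mitotic spindle, Plk3, a polo-like kinase, Ddb2, which recognises ultraviolet damage in nucleotide excision repair, and Dcxr, a sugar and dicarbonyl reductase. The rises were in Apaf1, the scaffold of the apoptosome, Zmat3, a zinc finger protein that binds RNA, and Gtse1, a microtubule-binding protein that restrains p53 in human cells. The share of members called was 23.3%, against 23% of all genes tested, of which 13.1% were higher and 9.83% lower, so the members were called about as often as any gene. Their median log2 fold change was 0.04, against -0.04 for all genes.

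Among the cell cycle genes, Psrc1 stood at 19.5, 20.2 and 23 CPM in intact BE cells, against 30.7, 38.3 and 34.7 CPM in nCas9 cells. Plk3 had 10.5, 8.97 and 9.75 CPM in intact BE cells, against 14.9, 13.8 and 15.2 CPM in nCas9 cells. Gtse1 had 58.1, 59.9 and 63.9 CPM in intact BE cells, against 45.7, 49.7 and 55.8 CPM in nCas9 cells. For each of the 3 genes every intact BE library lay on 1 side of every nCas9 library, most widely for Psrc1. The log2 fold changes were -0.72 ± 0.12 (SE) for Psrc1 with adjusted p = 3.3e-05, -0.58 ± 0.2 for Plk3 with adjusted p = 0.0267, and 0.27 ± 0.1 for Gtse1 with adjusted p = 0.042. Psrc1 kept its call when any 1 library was left out. Plk3 lost its call without intact BE replicate 2 or 3 or nCas9 replicate 1 or 3 (adjusted p 0.0629 to 0.104), and Gtse1 without any 1 of the 3 intact BE libraries or nCas9 replicate 1 or 2 (0.0537 to 0.192), with no filter (0.0596) and from the compared libraries alone (0.052).

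Among the genes of cell death, Apaf1 stood at 172, 157 and 157 CPM in intact BE cells, against 113, 125 and 135 CPM in nCas9 cells. Zmat3 had 56.1, 56.7 and 54.6 CPM in intact BE cells, against 46, 36.3 and 51.9 CPM in nCas9 cells. Both groups of Apaf1 are well apart, whereas the highest nCas9 library of Zmat3 comes close to the lowest intact BE library. Apaf1 rose by 0.38 ± 0.09 (SE) on the log2 scale with adjusted p = 0.00114, and kept its call when any 1 library was left out. Zmat3 rose by 0.31 ± 0.12 with adjusted p = 0.0482, a call that ended without any 1 of the 3 intact BE libraries or nCas9 replicate 1 or 2, with adjusted p from 0.0746 to 0.306, by DESeq2 (0.0608) and with a filter of 1 CPM in 3 libraries (0.0544).

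In DNA repair, Ddb2 had 6.46, 4.52 and 6.91 CPM in intact BE cells, against 11.9, 12.9 and 11.5 CPM in nCas9 cells. In metabolism, Dcxr had 16.2, 15.2 and 16.6 CPM in intact BE cells, against 26, 17.2 and 22.6 CPM in nCas9 cells. All Ddb2 values of intact BE cells are far under those of nCas9 cells, while nCas9 replicate 2 of Dcxr lies just above the intact BE libraries. Ddb2 fell by 1.01 on the log2 scale (SE 0.27, adjusted p = 0.00671), and without intact BE replicate 2 the change was -0.85 with adjusted p = 0.0514. Dcxr fell by 0.46 (SE 0.15, adjusted p = 0.0279), a call that ended without any 1 of the 3 intact BE libraries or nCas9 replicate 1 or 3, with adjusted p from 0.0605 to 0.21.

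Ddb2 shares exon sequence with Acp2, a lysosomal phosphatase gene on the opposite strand, and the strand setting of the count is not known here, so reads of the 2 genes may have been mixed. Acp2, with 13227 counts over all libraries against 2716 for Ddb2, had a log2 change of -0.07 ± 0.1 (SE) in intact BE against nCas9 cells, with adjusted p = 0.668. As an alternative, a smooth trend of the levels on the length and GC content of the transcript was fitted in each library. It was taken out before the model was fitted and tested again. This ended the calls of Apaf1 (adjusted p = 0.0956), Plk3 (0.106), Dcxr (0.593) and Zmat3 (0.623), kept those of Psrc1, Ddb2 and Gtse1, and added rises of Phlda3 and Bax and a fall of Sesn1. Dcxr has a short transcript of 914 bases with a GC content of 60.1%, and Apaf1 a long one of 6577 bases with 46%.

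**Figure D3:**
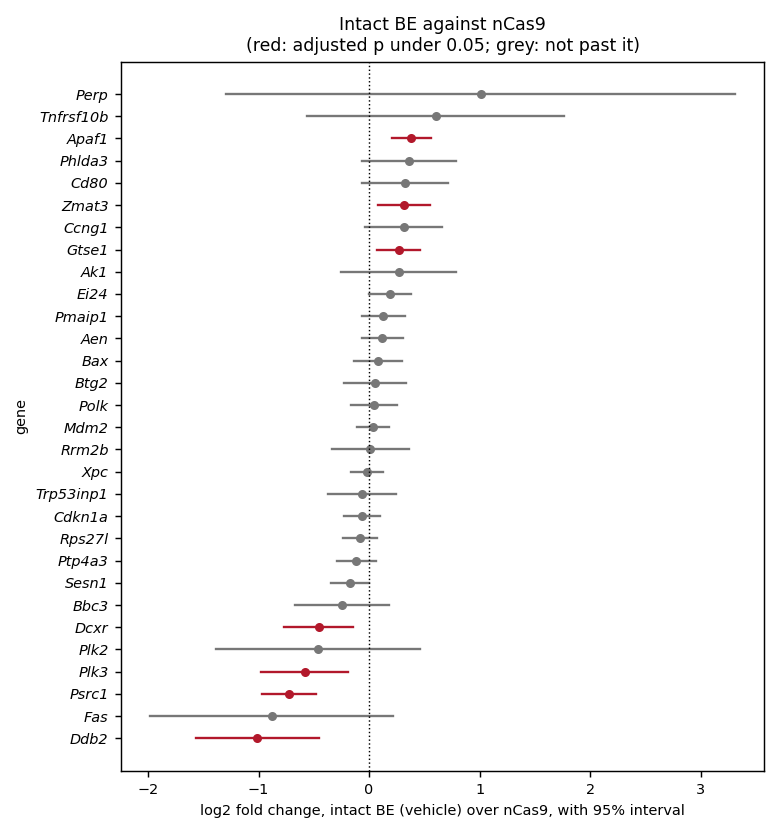
Log2 fold change of the 30 tested p53 targets in intact BE with vehicle over nCas9 (x axis, with the 95% interval of the edgeR fit as a line), in order of size; red marks an adjusted p under 0.05. The 7 red genes run from Ddb2 at -1.01 to Apaf1 at 0.38, while Fas, Plk2, Tnfrsf10b and Perp have wide intervals that cross 0.

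Intact BE cells were also set against the catalytic mutant, which has the same construct with an inactive deaminase. The test called 7 of the 30 members (23.3%), 3 higher and 4 lower, against 21% of all genes, 11.6% higher and 9.33% lower. Those higher were Apaf1, Pmaip1 and the ribosomal protein paralog Rps27l, grouped here under cell death. Those lower were the cell cycle genes Psrc1, Plk3 and Ptp4a3, a phosphatase, and the reductase Dcxr. The median log2 fold change was -0.02 over the members and -0.03 over all genes.

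Psrc1 had 19.5, 20.2 and 23 CPM in intact BE cells, against 32.5, 35.3 and 31.2 CPM in catalytic mutant cells. Plk3 had 10.5, 8.97 and 9.75 CPM in intact BE cells, against 14.6, 16.9 and 16.1 CPM in catalytic mutant cells. Ptp4a3 had 67.6, 76.7 and 79.3 CPM in intact BE cells, against 96.7, 101 and 89.9 CPM in catalytic mutant cells. The groups do not overlap for any of these cell cycle genes. The log2 fold changes were -0.66 ± 0.12 (SE, adjusted p = 0.000227) for Psrc1, -0.70 ± 0.2 (adjusted p = 0.00899) for Plk3 and -0.37 ± 0.09 (adjusted p = 0.00234) for Ptp4a3. None of these 3 calls depended on a single library. With the length and GC trend removed, Plk3 was at -0.38 with adjusted p = 0.231 and Ptp4a3 at -0.18 with adjusted p = 0.12, and Psrc1 kept its call.

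Apaf1 had 172, 157 and 157 CPM in intact BE cells, against 113, 121 and 119 CPM in catalytic mutant cells. Pmaip1 had 90.4, 100 and 89.5 CPM in intact BE cells, against 74.9, 72.7 and 72.9 CPM in catalytic mutant cells. Rps27l had 258, 246 and 244 CPM in intact BE cells, against 241, 208 and 191 CPM in catalytic mutant cells. The 2 groups are apart for all 3 genes, by only a few CPM for Rps27l. Apaf1 rose by 0.46 ± 0.09 (SE, adjusted p = 0.000302), a call that no alternative ended. Pmaip1 rose by 0.34 ± 0.1 (adjusted p = 0.00874), with adjusted p = 0.0624 without intact BE replicate 2 and 0.263 with the trend removed. Rps27l rose by 0.23 ± 0.08 (adjusted p = 0.0288), and the call ended without intact BE replicate 1 or 2 or catalytic mutant replicate 2 or 3, with adjusted p from 0.0653 to 0.209, and with the trend removed (0.0668).

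Dcxr had 16.2, 15.2 and 16.6 CPM in intact BE cells, against 22, 21 and 22.7 CPM in catalytic mutant cells. Its log2 fold change was -0.45 ± 0.15 (SE, adjusted p = 0.0355). The groups are apart, but the adjusted p rose to between 0.0619 and 0.114 when any 1 of the 6 libraries was left out, and was 0.921 with the trend removed. Rps27l and its paralog Rps27 are closely related genes, and the count may have split their reads. Rps27 had a log2 change of 0.06 (adjusted p = 0.776) in the same comparison.

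Catalytic mutant cells differed from nCas9 cells in 2 of 30 members (6.67%), 1 higher and 1 lower, against 4.3% of all genes, 2.24% higher and 2.06% lower. Both are grouped here under cell death. Rps27l had 241, 208 and 191 CPM in catalytic mutant cells, against 278, 267 and 249 CPM in nCas9 cells, a log2 fold change of -0.31 ± 0.08 (SE, adjusted p = 0.0133). Phlda3, a membrane-binding protein that restrains the survival kinase Akt, had 14.8, 9.77 and 12.2 CPM in catalytic mutant cells, against 6.37, 6.98 and 9.18 CPM in nCas9 cells, a log2 fold change of 0.70 ± 0.21 (adjusted p = 0.0459). The groups do not overlap for either gene, but for each of them a single library of each group comes close to the other group. The paralog Rps27 changed by -0.36 on the log2 scale in this comparison, with adjusted p = 0.0514. Of the members called in intact BE against nCas9 cells, Gtse1, Zmat3 and Ddb2 had log2 fold changes of 0.30, 0.25 and -0.63 here. Psrc1, Plk3, Dcxr and Apaf1 were at -0.07, 0.12, -0.01 and -0.08, all of these with no call in the full fit.

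Neither call in the catalytic mutant held throughout. Rps27l lost its call without nCas9 replicate 1 or 2 or catalytic mutant replicate 2 or 3 (adjusted p 0.0586 to 0.102), and Phlda3 without nCas9 replicate 1 or 2 or catalytic mutant replicate 1 or 3 (0.0915 to 0.219). With the length and GC trend removed, Rps27l, whose transcript has 575 bases, was at -0.02 with adjusted p = 0.907, and Phlda3 at 0.51 with adjusted p = 0.236. From the compared libraries alone Phlda3 had adjusted p = 0.102.

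Cells with seBE and vehicle differed from nCas9 cells in 1 of 30 members (3.33%), which was higher, against 4.56% of all genes, 2.64% higher and 1.93% lower. The member was Aen, a nuclease that promotes apoptosis. It had 75.5, 84 and 86.6 CPM in seBE cells, against 63.4, 58 and 76.3 CPM in nCas9 cells. The groups overlap, since nCas9 replicate 3 exceeds seBE replicate 1. Aen rose by 0.31 ± 0.09 (SE, adjusted p = 0.0375), and the adjusted p was between 0.0625 and 0.236 without any 1 of the 3 seBE libraries or nCas9 replicate 1 or 2, 0.0755 with the trend removed and 0.0634 from the compared libraries alone. Psrc1, Apaf1 and Ddb2 had log2 fold changes of -0.18, 0.13 and -0.65 in this comparison, with no call. This comparison and those of intact BE and the catalytic mutant share the 3 nCas9 libraries.

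**Figure D4:**
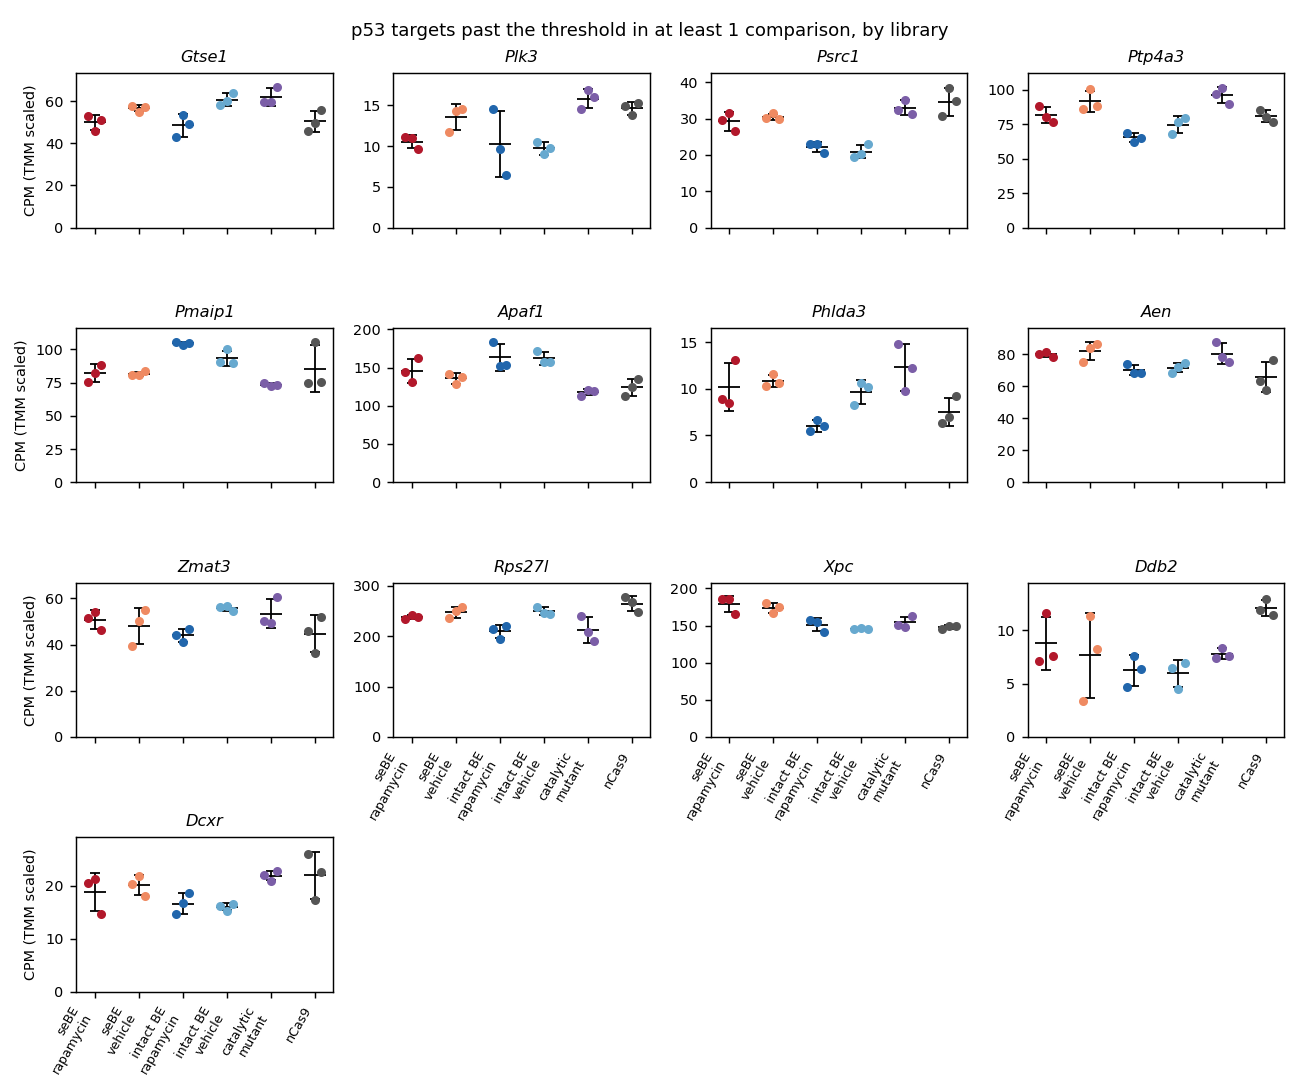
CPM (TMM scaled) in each of the 18 libraries for the 13 p53 targets called in at least 1 comparison, by group from seBE with rapamycin at the left to nCas9 at the right; points are libraries, lines the mean and bars the SD of 3. Psrc1 lies at 19.5 to 23 CPM in all 6 intact BE libraries and above 26 CPM in all others.

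Cells with seBE were set against cells with intact BE under vehicle and again under rapamycin, with no library in common. Under vehicle the test called 3 of 30 members (10%), all higher in seBE, against 3.99% of all genes, 1.68% higher and 2.32% lower. Under rapamycin it called 5 (16.7%), 4 higher and 1 lower, against 4.69% of all genes, 2.04% higher and 2.66% lower. The members called under vehicle were Psrc1, Ptp4a3 and Xpc, the protein that finds distorted DNA in nucleotide excision repair. All 3 were also called under rapamycin in the same direction, that is 100% of the calls under vehicle and 60% of those under rapamycin. These shares rest on few calls: with any 1 library left out, 0 to 1 members were called under vehicle and 0 to 4 under rapamycin. Over all genes, 171 were called in the same direction in both, 28.6% of those under vehicle and 24.3% of those under rapamycin. The median log2 fold change of the members was 0.002 under vehicle, against 0.008 for all genes, and 0.165 under rapamycin, against 0.005 for all genes.

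Psrc1 had 30.2, 31.5 and 29.8 CPM in seBE cells with vehicle, against 19.5, 20.2 and 23 CPM in intact BE cells with vehicle. Under rapamycin it had 29.7, 31.6 and 26.5 CPM in seBE cells, against 23, 23 and 20.5 CPM in intact BE cells. The groups are apart under both treatments, and the seBE libraries lie near the low end of the nCas9 and catalytic mutant libraries. The log2 fold change was 0.54 ± 0.12 (SE, adjusted p = 0.00912) under vehicle and 0.40 ± 0.12 (adjusted p = 0.0377) under rapamycin. Under vehicle the call ended without intact BE replicate 1 (adjusted p = 0.0967) or seBE replicate 2 (0.087). Under rapamycin it ended without any 1 of the libraries other than seBE replicate 3, with adjusted p from 0.0542 to 0.188, from the compared libraries alone (0.118) and with the trend removed (0.0705).

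Xpc had 180, 167 and 174 CPM in seBE cells with vehicle, against 145, 147 and 145 CPM in intact BE cells with vehicle. Under rapamycin it had 185, 185 and 166 CPM in seBE cells, against 157, 155 and 141 CPM in intact BE cells. Every seBE library exceeds every intact BE library under the same treatment. Xpc rose by 0.25 ± 0.07 (SE, adjusted p = 0.0368) under vehicle and by 0.24 ± 0.07 (adjusted p = 0.04) under rapamycin. Leaving out any 1 of the 6 libraries ended the call under vehicle, with adjusted p from 0.0756 to 0.17, and leaving out any library but seBE replicate 3 ended it under rapamycin, with adjusted p from 0.0551 to 0.203, as did no filter (0.0623) and the compared libraries alone (0.134).

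Ptp4a3 had 85.8, 101 and 88.1 CPM in seBE cells with vehicle, against 67.6, 76.7 and 79.3 CPM in intact BE cells with vehicle. Under rapamycin it had 88, 80.1 and 76.6 CPM in seBE cells, against 68.9, 62.4 and 65.3 CPM in intact BE cells. The libraries of the 2 editors do not overlap under either treatment. The log2 fold change was 0.30 ± 0.09 (SE, adjusted p = 0.0436) under vehicle and 0.31 ± 0.09 (adjusted p = 0.0265) under rapamycin. The call under vehicle ended without any 1 of the 6 libraries, with adjusted p from 0.0517 to 0.402, and with the trend removed (0.104). That under rapamycin ended without any library but seBE replicate 3, with adjusted p from 0.0516 to 0.116, and from the compared libraries alone (0.0777).

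The other members called under rapamycin were Pmaip1 and Phlda3. Pmaip1 had 75.3, 82.3 and 88.6 CPM in seBE cells with rapamycin, against 105, 104 and 105 CPM in intact BE cells with rapamycin, and fell by 0.35 on the log2 scale (SE 0.09, adjusted p = 0.0241). Phlda3 had 8.9, 8.5 and 13.1 CPM in seBE cells with rapamycin, against 5.44, 6.67 and 6 CPM in intact BE cells with rapamycin, and rose by 0.75 ± 0.21 (adjusted p = 0.0284). Neither gene's groups overlap, and the high Phlda3 mean of seBE cells leans on replicate 3. Pmaip1 lost its call without intact BE replicate 1 or 3 or seBE replicate 1 or 2 (adjusted p 0.0798 to 0.113). Phlda3 lost its call without intact BE replicate 1 or 3 or seBE replicate 3 (0.0873 to 0.145), from the compared libraries alone (0.0966) and with the trend removed (0.1). Under vehicle the log2 fold changes were -0.19 for Pmaip1 (adjusted p = 0.278) and 0.16 for Phlda3 (adjusted p = 0.778), and the difference between treatments passed for neither gene (adjusted p = 0.906 and 0.718).

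**Figure D5:**
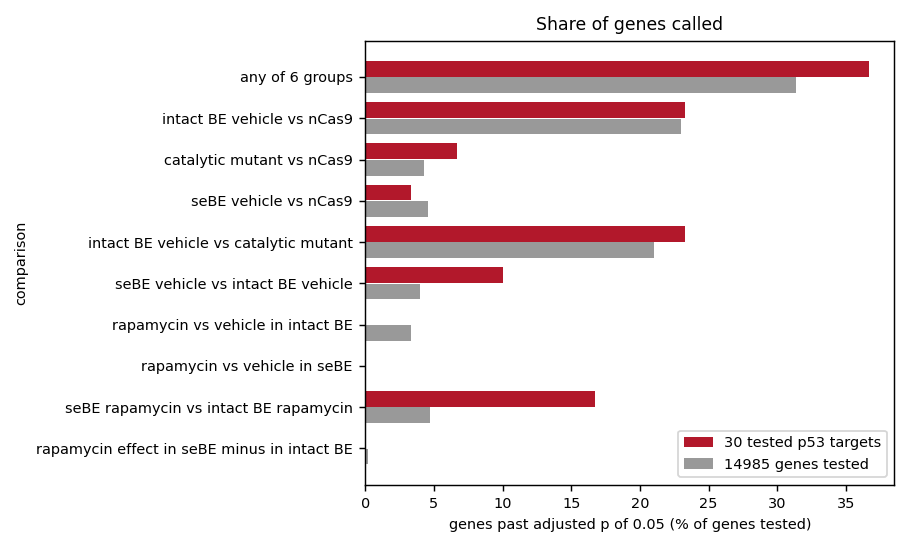
Share of genes past an adjusted p of 0.05 (x axis, % of genes tested) for the 30 tested p53 targets (red) and all 14985 genes tested (grey), in each comparison and in the test over the 6 groups. The 2 bars are nearly equal for intact BE against nCas9, at 23.3% and 23%, and the red bar is the longer in both comparisons of seBE with intact BE.

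Rapamycin called no member in either editor. In intact BE cells 0 of 30 members passed, against 3.32% of all genes, 1.98% higher and 1.34% lower, while 6 (20%) had an unadjusted p under 0.05, against 14.4% of all genes, and DESeq2 called 3. The 3 that came closest were Gtse1, Rps27l and Phlda3. Gtse1 had 42.9, 53.3 and 49.2 CPM in intact BE cells with rapamycin, against 58.1, 59.9 and 63.9 CPM with vehicle, a log2 difference of -0.32 ± 0.1 (SE, adjusted p = 0.0546). Rps27l had 214, 195 and 220 CPM with rapamycin, against 258, 246 and 244 CPM with vehicle, a log2 difference of -0.25 ± 0.08 (adjusted p = 0.0594). Phlda3 had 5.44, 6.67 and 6 CPM with rapamycin, against 8.22, 10.7 and 10.2 CPM with vehicle, a log2 difference of -0.68 ± 0.21 (adjusted p = 0.0668). The groups do not overlap for any of the 3. DESeq2 called all 3 lower (adjusted p = 0.0306 for Gtse1, 0.026 for Rps27l and 0.035 for Phlda3), and without intact BE rapamycin replicate 2 edgeR called Gtse1, at -0.40 with adjusted p = 0.0336.

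In seBE cells rapamycin called 0 of 30 members and 0% of all genes by edgeR, and 1 member (3.33%) had an unadjusted p under 0.05, against 3.29% of all genes. It was Trp53inp1, which promotes autophagy and death, at a log2 difference of 0.40 ± 0.15 (SE, adjusted p = 0.999). DESeq2 called 0 members and 1 gene of all tested. The drug effect in seBE minus that in intact BE was tested as an interaction, which called 0 of 30 members against 0.187% of all genes. By unadjusted p under 0.05 it had 1 member (3.33%), against 6.97% of all genes: Zmat3, with a difference of 0.41 ± 0.16 (SE) on the log2 scale and adjusted p = 0.531, and DESeq2 called 0. A difference in drug response between the editors was thus not detectable in any member.

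The message of p53 itself, Trp53, averaged 152 ± 5.02 CPM in seBE cells with rapamycin, 151 ± 5.14 in seBE cells with vehicle, 164 ± 6.65 in intact BE cells with rapamycin, 159 ± 7.51 in intact BE cells with vehicle, 169 ± 11.7 in catalytic mutant cells and 148 ± 3.61 in nCas9 cells (SD, n = 3 each). It passed no comparison, and its smallest adjusted p was 0.117, for a log2 difference of 0.19 between catalytic mutant and nCas9 cells.

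A second list held 25 regulators of p53, of which 23 were tested. In intact BE against nCas9 cells 5 were higher and 3 lower, 34.8% of those tested, against 23% of all genes, 13.1% higher and 9.83% lower. Atm, the kinase that signals DNA breaks to p53, rose by 0.69 ± 0.12 (SE, adjusted p = 6.34e-05), with 63.2 ± 9.04 CPM in intact BE cells and 39.2 ± 0.89 CPM in nCas9 cells (SD, n = 3 each). The acetyltransferase Ep300 rose by 0.43 ± 0.08 (adjusted p = 0.000149). The p53 inhibitor Mdm4 fell by 0.38 (SE 0.08, adjusted p = 0.000694), and Rpl5, a ribosomal protein that binds Mdm2, fell by 0.37 (SE 0.07, adjusted p = 0.000122). Of the same list 4 were higher and 1 lower in intact BE against catalytic mutant cells, 21.7% against 21% of all genes. In seBE against nCas9 cells 2 were higher and 1 lower, 13% against 4.56% of all genes. Rapamycin in intact BE cells called Rpl5 alone, higher by 0.34 (SE 0.07, adjusted p = 0.00146), which is 4.35% of the list against 3.32% of all genes.

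A further list held 27 further p53 targets that are not among the 32, of which 25 were tested. In intact BE against nCas9 cells 0 were higher and 4 lower, 16% of those tested, against 13.1% of all genes higher and 9.83% lower. In intact BE against catalytic mutant cells 0 were higher and 6 lower, 24% of those tested, against 11.6% of all genes higher and 9.33% lower. Pidd1, which activates caspases, fell by 0.58 (SE 0.13, adjusted p = 0.00174) against nCas9 cells and by 0.82 (SE 0.13, adjusted p = 0.000104) against catalytic mutant cells. Its mean was 37.8 ± 0.69 CPM in intact BE cells, 66.6 ± 10.6 CPM in catalytic mutant cells and 56.5 ± 10.1 CPM in nCas9 cells (SD, n = 3 each). Gadd45a, a damage-inducible stress protein, fell by 0.47 (SE 0.12, adjusted p = 0.00527) in intact BE against nCas9 cells. Rapamycin in intact BE cells called 2 of the 25 (8%), against 3.32% of all genes, 1.98% higher and 1.34% lower: the sestrin Sesn2 fell by 0.62 (SE 0.1, adjusted p = 0.000179) and Thbs1, a secreted matrix protein, rose by 0.64 (SE 0.11, adjusted p = 0.0021). Under rapamycin Thbs1 was 0.88 lower on the log2 scale in seBE than in intact BE cells (SE 0.12, adjusted p = 9.8e-05).

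The last list held 20 genes of mitosis that active p53 is known to repress through the DREAM complex, all of them tested. In intact BE against nCas9 cells 10 were higher and 0 lower, that is 50% of the list higher against 13.1% of all genes. In intact BE against catalytic mutant cells 8 were higher and 0 lower, 40% against 11.6% of all genes higher. Their median log2 fold change was 0.22 and 0.21 in these comparisons, against -0.04 and -0.03 for all genes. The list also had calls in the other groups against nCas9 cells. In seBE with vehicle 3 were higher and 0 lower, 15% against 2.64% of all genes higher, with a median of 0.098 against -0.01 for all genes. In the catalytic mutant 2 were higher and 1 lower, 15% against 4.3% of all genes called, with a median of 0.026 against -0.004. Top2a, the topoisomerase that untangles DNA before division, averaged 812 ± 41 CPM in intact BE cells, 589 ± 31.1 CPM in catalytic mutant cells and 569 ± 44.4 CPM in nCas9 cells (SD, n = 3 each). Its log2 fold change was 0.46 ± 0.08 (SE, adjusted p = 0.000148) against the catalytic mutant and 0.51 ± 0.08 (adjusted p = 2.13e-05) against nCas9. The polo-like kinase Plk1 rose by 0.42 ± 0.09 (adjusted p = 0.00071) and the checkpoint kinase Bub1b by 0.35 ± 0.07 (adjusted p = 0.000735) against nCas9, and cyclin A (Ccna2) rose by 0.41 ± 0.08 (adjusted p = 0.000576) against the catalytic mutant. In seBE against intact BE cells under vehicle 2 of the 20 (10%) were lower and 0 higher, against 2.32% of all genes lower. Top2a was 1 of these, at -0.34 ± 0.08 (adjusted p = 0.0152). These 3 lists were chosen with earlier results of these data known, so their shares are descriptions and not independent tests. Their values come from the fit of all 18 libraries. Their counts under the alternatives are not given here.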

How the data were processed

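The authors deposited raw read counts per gene of 18 RNA-seq libraries. Per the submitters' processing notes, fastp 1.0.1, STAR 2.7.1a, SAMtools 1.9, featureCounts of Subread 2.0.3, DESeq2 and the mouse genome GRCm39 were used; the annotation release, strand setting and handling of multi-mapping reads are not given in these sources, so reads of overlapping or closely related genes may be mixed. The members and all gene lists were chosen with earlier results of these data known. Symbols were matched for 52073 of 56748 gene IDs.

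The counts were filtered with filterByExpr, which left 14985 genes with 99.93% of the counts. They were fitted in 1 model of 6 group means with edgeR 4.0.16 in R 4.3.3, using TMM scaling, robust quasi-likelihood F tests and Benjamini-Hochberg adjustment over all genes tested, with a threshold of 0.05. The biological coefficient of variation was 13.3%. An SE is the log2 fold change divided by the square root of F, and CPM are counts per 1000000 of the TMM-scaled library size.

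Members called at least once are given by library in the comparison of their smallest adjusted p, with Cdkn1a and Mdm2; library values elsewhere were added after they were seen. Of the other lists, up to 4 genes of smallest adjusted p and Trp53 are named, and Rpl5 under rapamycin was added after its value was seen. Lengths, GC content and exon overlaps came from GENCODE M21 on GRCm38, an older build than that of the counts, and promoters from RefSeq on GRCm38.p6, where 9 members had no window in the table used. The procedure was run on counts simulated with the fitted spread. The outcome for changes as small as those called is not given here. Alternatives were DESeq2 1.42.0, other filters, the compared libraries alone, a replicate block, removal of a trend on length and GC content with and without the block, and each library left out.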

Additional observations from a re-analysis of the deposited data

How the results depend on the processing

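Of the 25 member calls, 3 were kept in every alternative: Psrc1 in intact BE against nCas9 and against the catalytic mutant, and Apaf1 against the catalytic mutant. No call changed sign, and 126 of 342 repeats fell short of the threshold. When each library was left out in turn, the members called ranged from 10 to 13 over the 6 groups (11 in the full fit), 2 to 6 for intact BE against nCas9 (7), 0 to 4 for the catalytic mutant against nCas9 (2), 0 to 1 for seBE against nCas9 (1), 4 to 6 for intact BE against the catalytic mutant (7), 0 to 1 for seBE against intact BE under vehicle (3), 0 to 4 under rapamycin (5), 0 to 1 for rapamycin in intact BE (0), and 0 to 0 both for rapamycin in seBE (0) and for the difference of drug effects (0). The 2 members left in intact BE against nCas9 were those without intact BE replicate 2.

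Other settings that moved a count by over 1.5 times were these, and the cause was not tested. For the catalytic mutant against nCas9, DESeq2 called 5 members, the compared libraries alone 1, and removal of the length and GC trend 0. For seBE against nCas9, DESeq2 and a filter of 1 CPM in 3 libraries called 2 each, the compared libraries alone 0 and the trend removal 0. The trend removal left 2 members for intact BE against the catalytic mutant and 3 for seBE against intact BE under rapamycin, and the compared libraries alone gave 5 for seBE against intact BE under vehicle and 1 under rapamycin. For rapamycin in intact BE, all members called were lower: 3 by DESeq2, 2 with no filter, 4 from the compared libraries alone and 2 with the trend removed. Leaving out nCas9 replicate 2 together with catalytic mutant replicate 3, a setting chosen after seeing the data, gave 0 members for the catalytic mutant against nCas9 and 0 for seBE against nCas9.

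Replicate numbers were not used to pair the samples in the full fit. Residuals of same-numbered libraries correlated at -0.03 to 0.06 over 8 pairs of groups, and 13 of 24 libraries correlated best with their own number. With so few libraries a group, these correlations cannot decide whether libraries of the same number belong together. With a replicate block, the members called were 4 for the catalytic mutant against nCas9, 2 for seBE against nCas9 and 3 for rapamycin in intact BE, and Ccng1 was called in intact BE against nCas9 (0.33, adjusted p = 0.0494; 0.24 and 0.00738 with the trend removed too). With the block and the trend removal these were 0, 1 and 4, and 3 for intact BE against the catalytic mutant; other counts with the block were within 1.5 times of the full fit. Genes under about 2 CPM (6 members) are limited by depth.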
